A study of Mus musculus with 19 samples.

Results

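Adult cardiomyocytes (CMCs) carry 5-hydroxymethylcytosine (5-hmC) over many of their gene bodies (GBs), and the 2 adult peak lists of the series were used here to describe, gene by gene, how much of each GB lay under a peak. The measure was the percent of a gene's base pairs under hMeDIP peaks, taken separately in each biological replicate (n = 2), and genes were ranked by the lower of the 2 values, so that a high rank needed cover in both. Members were protein-coding genes with a curated RefSeq transcript, on an autosome of the mouse build mm10 and at least 5 kb long, which gave 15498 of the 21000 annotated genes. A further 4523 autosomal genes were shorter than 5 kb. At that limit, *Jsrp1* (5003 bp) was just inside, with 15.4% and 43.3% of its length under peaks in replicates 1 and 2, and *Pcbd1* (4999 bp) was just outside, with 0% and 12.8%.

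Cells came from the left ventricle of untreated male C57BL/6J mice at 2 months of age, without any transgene, and were separated from the other cells of the heart by enzymatic perfusion and sedimentation under gravity. The paper reports that most, but not all, cells of its preparations stained for sarcomeric actinin. DNA was sonicated and precipitated with an antibody to 5-hmC, and peaks were called against input DNA. The series holds 19 samples, of which 8 have peak lists, for embryonic, neonatal, adult and pressure-overloaded CMCs. No comparison between these points was made, and the 2 adult lists were the only ones used. Replicate 1 held 104215 peaks and replicate 2 held 121214. The median width was 501 bp in both, the width of 57.4% and 50.9% of the peaks, and the widest peaks spanned 12562 and 22622 bp. Read numbers were not in the lists, so no confidence interval for a single gene is given, and a gene without a peak is a gene in which no enrichment passed the caller's threshold, not one shown to lack the mark.

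5-hmC is made when a TET dioxygenase oxidises 5-methylcytosine, which in mammals sits mainly at CpG dinucleotides. The mark can be an intermediate of demethylation, and it can also persist in non-dividing cells such as neurons and CMCs, where it is known to mark the bodies and enhancers of active genes while active transcription start sites (TSSs) are usually free of it. An affinity method such as hMeDIP needs several marked cytosines in 1 fragment, so regions with many CpGs can be seen more readily than regions with few.

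To show what kind of sequence these values refer to, 300 bases were read from the reference for the 3 heart genes with the highest lower value and for 3 well-known heart genes without a peak. For the first 3, the window is the centre of the widest stretch under peaks of both replicates that holds no untranslated region. For the others, it is the stretch without untranslated sequence nearest to the middle of the gene. Sequences run 5′ to 3′ on the gene's strand, with each CpG in capitals. *Slc4a3* is shown at chr1:75553749-75554048 on the plus strand (94 coding bases, the rest intron), *Acadvl* at chr11:70011020-70011319 on the minus strand (157 coding bases, the rest intron) and *Pnpla2* at chr7:141457682-141457981 on the plus strand (intron). Of the genes without a peak, *Actc1* is shown at chr2:114049929-114050228 on the minus strand, *Fabp3* at chr4:130311951-130312250 on the plus strand and *Pln* at chr10:53341682-53341981 on the plus strand, all in introns.
Slc4a3: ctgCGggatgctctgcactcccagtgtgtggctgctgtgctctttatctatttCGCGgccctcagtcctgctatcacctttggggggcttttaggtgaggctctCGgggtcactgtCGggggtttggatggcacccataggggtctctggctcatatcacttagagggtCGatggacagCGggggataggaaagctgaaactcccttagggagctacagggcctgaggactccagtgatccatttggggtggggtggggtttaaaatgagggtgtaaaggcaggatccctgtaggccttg
Acadvl: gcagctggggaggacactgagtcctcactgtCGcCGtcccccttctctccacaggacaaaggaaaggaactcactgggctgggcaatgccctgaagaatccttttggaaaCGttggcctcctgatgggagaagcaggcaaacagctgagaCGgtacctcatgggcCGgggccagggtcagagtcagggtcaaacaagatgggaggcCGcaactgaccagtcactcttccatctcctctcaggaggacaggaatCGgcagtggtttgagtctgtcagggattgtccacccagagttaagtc
Pnpla2: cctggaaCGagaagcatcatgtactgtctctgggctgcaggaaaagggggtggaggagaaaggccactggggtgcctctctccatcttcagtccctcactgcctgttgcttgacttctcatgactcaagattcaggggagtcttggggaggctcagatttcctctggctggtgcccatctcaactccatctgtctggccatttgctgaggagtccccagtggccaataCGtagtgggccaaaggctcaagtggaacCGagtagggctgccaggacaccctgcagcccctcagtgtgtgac
Actc1: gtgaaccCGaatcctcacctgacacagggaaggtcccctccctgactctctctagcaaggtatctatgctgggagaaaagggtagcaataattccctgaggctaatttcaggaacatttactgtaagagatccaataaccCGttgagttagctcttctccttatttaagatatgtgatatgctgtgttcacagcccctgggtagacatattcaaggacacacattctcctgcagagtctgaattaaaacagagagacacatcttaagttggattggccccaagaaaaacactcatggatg
Fabp3: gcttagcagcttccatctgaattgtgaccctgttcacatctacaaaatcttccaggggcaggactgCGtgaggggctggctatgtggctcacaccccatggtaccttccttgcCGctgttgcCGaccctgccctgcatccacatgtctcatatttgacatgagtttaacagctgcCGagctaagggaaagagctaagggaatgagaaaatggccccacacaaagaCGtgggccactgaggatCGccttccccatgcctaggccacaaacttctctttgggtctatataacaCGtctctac
Pln: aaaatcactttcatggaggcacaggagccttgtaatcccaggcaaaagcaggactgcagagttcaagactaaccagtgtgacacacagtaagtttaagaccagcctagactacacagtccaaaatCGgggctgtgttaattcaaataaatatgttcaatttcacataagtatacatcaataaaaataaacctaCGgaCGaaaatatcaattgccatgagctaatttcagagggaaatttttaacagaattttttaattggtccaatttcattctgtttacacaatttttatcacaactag
The windows under peaks held 7 CpGs in *Slc4a3*, 7 in *Acadvl* and 3 in *Pnpla2*, at a GC content of 56.7 to 57%. Those of the genes without a peak held 2 in *Actc1*, 7 in *Fabp3* and 3 in *Pln*, with GC contents of 44.3%, 52.3% and 35.3%. The CpG counts of both kinds of window overlapped, whereas the GC contents did not. Over the whole gene, CpGs per 300 bases were 7.75 in *Slc4a3*, 6.35 in *Acadvl* and 8.15 in *Pnpla2*. They were 4.18 in *Actc1*, 4.86 in *Fabp3* and 2.27 in *Pln*, without overlap. The windows were chosen by different rules and need not stand for their genes.

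Most genes were covered over a small part of their length and a minority over a large part. The median gene had 3.86% of its bases under peaks in replicate 1 and 5.24% in replicate 2, with means of 7.11% and 9.54%. The highest values of any gene were 88.9% and 91%. In both replicates together, the lower value had a median of 2.74%, reached 8.49% at the upper quartile and was 16.8% at the edge of the top 10%, where *Trim10* was the last gene inside and *Nedd4l* the first outside. A lower value of 10% or more was found in 3244 genes, or 20.9% of all, of 20% or more in 1128, of 30% or more in 405 and of 50% or more in 43. At the other end, 2572 genes (16.6%) had no peak base in either replicate and are called bare here. A peak base in 1 replicate only was found in 2546 genes, and in both in 10380. Taken alone, replicate 1 left 4103 genes without a peak base and had 3899 at 10% or more, and replicate 2 left 3587 and had 5059.

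The top 10%, 1550 genes or 10% of those measured by its definition, made up 7.49% of all gene bases and held 34.8% of the genic peak bases of replicate 1 and 33% of those of replicate 2. These shares describe the ranking and are not an independent result.

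The gene at the head of the ranking was *Cxxc1* (chr18:74216212-74221493, 5.28 kb), which encodes a CpG-binding subunit of the SET1 histone methyltransferase complexes. Peaks lay over 88.9% of it in replicate 1 and 82.3% in replicate 2 (85.6% ± 4.65, SD, n = 2). *Tmem259*, which encodes a membrane protein, followed with 73.6% and 87.5%, *Lamb2*, a laminin chain of basement membranes, with 68.4% and 81.1%, and *Calm3*, 1 of the genes for the calcium sensor calmodulin, with 67.9% and 76%. *Adamtsl4*, which encodes a matrix protein related to the ADAMTS proteases, had 73.4% and 67.4%. In these 5 genes no value fell below 67% in either replicate, which restates their rank by the lower value.

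Further down the 25 highest genes, *Dvl2*, a cytoplasmic transducer of Wnt signals, had 63.1% and 76.4% of its length under peaks. *Sik1*, a kinase related to AMPK, had 64.6% and 62.1%, and *Ticam1*, the adaptor of Toll-like receptor 3, had 63.1% and 74.7%. The zinc finger genes *Zfp46* (67.9% and 64.7%) and *Zfp574* (80.4% and 63.5%) were higher in replicate 1. *Nrtn*, the ligand neurturin, had 56.6% and 78.2%, *Caskin2*, a scaffold protein, 64.1% and 74.4%, and *Snx18*, a sorting nexin, 64.1% and 57.6%.

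Mitochondrial and metabolic genes stood among them. *Mul1*, a ubiquitin ligase of the outer mitochondrial membrane, had 64.1% and 79%, and *Ucp2*, a carrier of the inner membrane, had 59.4% and 62.9%. *Acadvl*, which encodes very long-chain acyl-CoA dehydrogenase, the first enzyme of mitochondrial beta-oxidation for long chains, had 59.8% and 64.8%. *Pnpla2*, the adipose triglyceride lipase that releases fatty acids from lipid droplets, had 57.5% and 65.2%. *Slc4a3*, a chloride-bicarbonate exchanger of muscle and heart, had 60.1% and 84.3%, and it belonged with *Acadvl* and *Pnpla2* to the 3 of 25 leading genes that were in a heart list. The actin-binding coronin gene *Coro6* had 63% and 65.6%. The others were *Vps37b*, *Fbxo31*, *Tinagl1*, *Wdr6*, *Pheta1* and *Pmepa1*, with lower values between 56.1% and 61%.

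**Figure D1:**
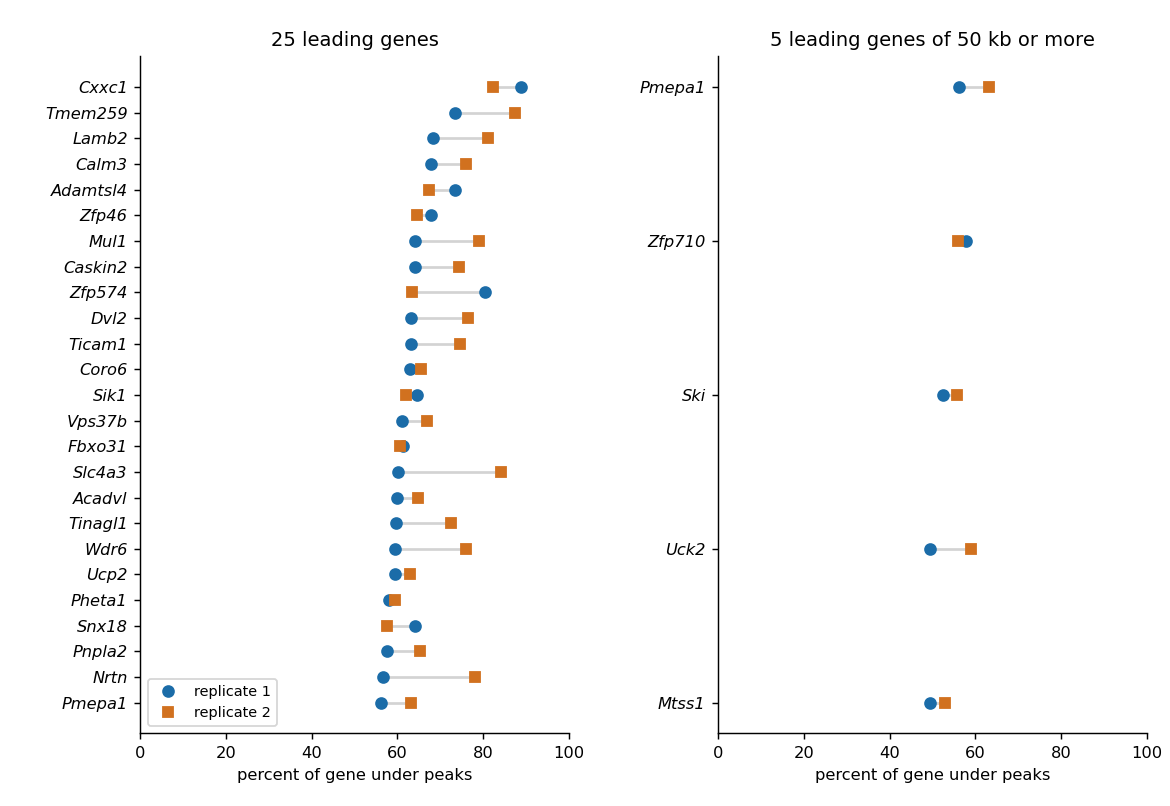
Percent of gene length under 5-hmC peaks (x axis) in adult replicate 1 (circles) and replicate 2 (squares), for the 25 genes with the highest lower value (left) and the 5 highest among genes of 50 kb or more (right); the grey line joins the 2 replicates. *Cxxc1* sits at 88.9% and 82.3%, and among the long genes *Pmepa1* at 56.1% and 63.2%.

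The 25 leading genes were short and rich in CpG. Of them, 21 were shorter than 20 kb, against a median length of 25.3 kb over all genes, and each of the 25 had more CpGs per 100 bp (1.35 to 4.58) than the median gene (1.19). Replicate 2 gave the higher value in 18 of the 25. *Tmem259* and *Wdr6* overlap another protein-coding gene, so that part of their cover is shared with it. *Acadvl* and *Dvl2* lie 1 after the other on chromosome 11, and *Acadvl* was the only gene of the top 10% with no peak centre inside it in either replicate: the peaks that covered it were centred outside.

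Long genes could also be covered over a large part of their length, which asks for many peaks. *Pmepa1*, a negative regulator of TGF-beta signalling, led those of 50 kb or more, with 14 peak centres and 56.1% in replicate 1 and 16 centres and 63.2% in replicate 2. *Zfp710*, a zinc finger gene, had 57.9% and 56%, and *Ski*, a co-repressor of SMAD proteins, 52.5% and 55.8%. The uridine-cytidine kinase gene *Uck2* had 49.5% and 59.1%, and *Mtss1*, which encodes a membrane-bending protein that binds actin, 49.4% and 52.8% over 140.8 kb. *Foxo3*, a forkhead factor of the atrophy and stress programmes, had 48.7% and 54.3%. *Zbtb16* (also known as PLZF), over 184.4 kb, had 49% and 48.6%, and *Wbp1l* (48.2% and 51.2%) and *Lnx2* (51.8% and 48.1%) were close to it. The replicates of each of these genes lay within 10 percentage points of each other, a closeness that ranking by the lower value favours.

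**Figure D2:**
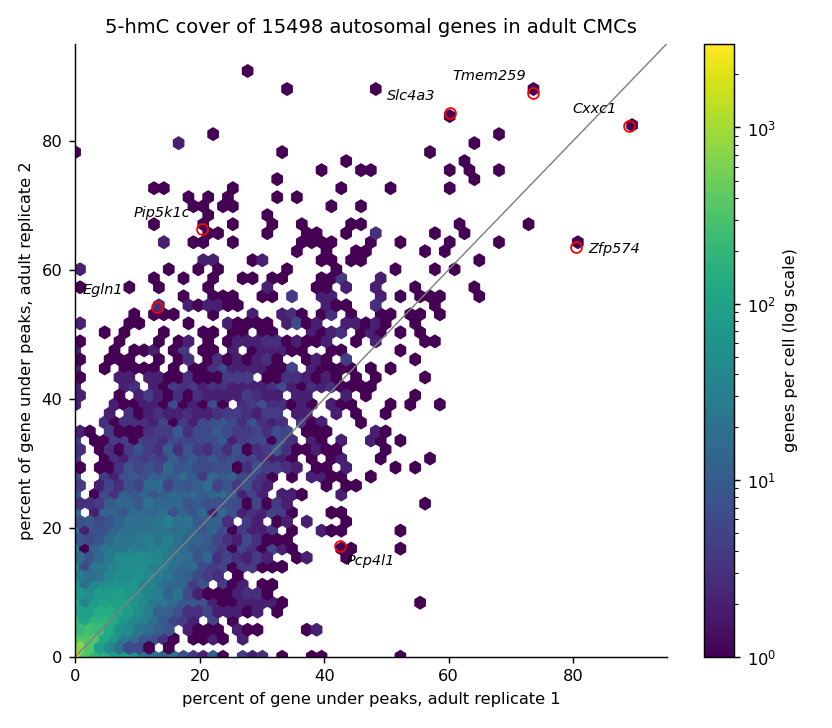
Percent of each gene under peaks in adult replicate 1 (x axis) against replicate 2 (y axis) for 15498 genes, with the number of genes in each hexagon on a log colour scale, the diagonal of equal values in grey and named genes ringed. Most genes lie near the origin, more of them above the diagonal than below it, and *Egln1* and *Pip5k1c* lie far above it.

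The replicates ranked genes alike in broad terms and differed in detail. Across the 15498 genes, Spearman's rho between the 2 values was 0.741 and Pearson's r was 0.780, which is a description only, since genes share the same 2 libraries, neighbours and base composition and are not independent replicates. Replicate 2, with the longer list, was higher in 8236 genes and replicate 1 in 4252, and in the 10380 genes with a peak base in both the median ratio of replicate 2 to replicate 1 was 1.25. In 72.3% of these the values lay within a factor of 2. The absolute difference had a median of 2.29 percentage points and was 12.2 points at its 90% quantile.

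At the head of the lists the overlap was lower. Of the 155 genes in the top 1% of each replicate, 62 were shared (40%, and 9.68% when genes were ranked by peak centres per 10 kb), and of the 1550 in the top 10%, 962 were shared (62.1%). Among the top 10% of replicate 1, 26 genes were bare in replicate 2, and 43 the other way round. Peaks of the replicates often covered different bases of a gene: over all genes 42.1% of the genic peak bases of replicate 1 also lay under replicate 2 and 33.4% of those of replicate 2 under replicate 1, and 2238 genes had peaks in both replicates without a shared base. Counted by bases under both replicates, 7356 genes would thus be bare and 1471 would reach 10%.

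Agreement rose with gene length. Spearman's rho between the replicates was 0.611 for the 2790 genes of 5 to 10 kb, 0.716 at 10 to 20 kb, 0.799 at 20 to 50 kb, 0.887 at 50 to 100 kb and 0.940 for the 2207 genes of 100 kb and more. The median SD between replicates fell from 3.73 points in the shortest class to 0.672 in the longest. In a gene of 5 kb, 1 peak of the usual width of 501 bp moves the value by about 10 points, and in a gene of 50 kb by about 1 point.

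The genes of 20 kb or more on which the replicates differed most can be named. *Pip5k1c*, a lipid kinase of focal adhesions, had 20.5% in replicate 1 and 66.2% in replicate 2. *Egln1*, which encodes the oxygen-sensing prolyl hydroxylase PHD2, had 13.2% and 54.2%, and *Lrrc4b*, *Hip1r* and *Foxo6* were also higher in replicate 2, by 39.5, 35.9 and 35.4 points. In the other direction the largest gaps were smaller. *Pcp4l1* had 42.5% and 17.2%, *Tbc1d10a* 22.9% and 0%, and *Gm21992*, *Adnp* and *Fgf18* were lower in replicate 2, with differences of -20.1, -19.4 and -18.2 points.

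Genes of the heart stood high in the ranking more often than genes in general. There were 12 lists of heart genes, named by function and chosen with earlier results of these data known. They held 445 measured genes after each was counted once. Of these, 136 (30.6%) were in the top 10%, beside 10% of all genes, and 252 (56.6%) had a lower value of 10% or more, beside 20.9%. Their median lower value was 11.5%, beside 2.74% for all genes. Bare genes numbered 10 (2.25%), beside 16.6%, and 11.2% of heart genes had no base under peaks of both replicates, beside 47.5% of all genes. Of the 12 lists, 11 had a larger share in the top 10% than all genes had. No test of a list was made, since genes are not replicates of a condition.

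**Figure D3:**
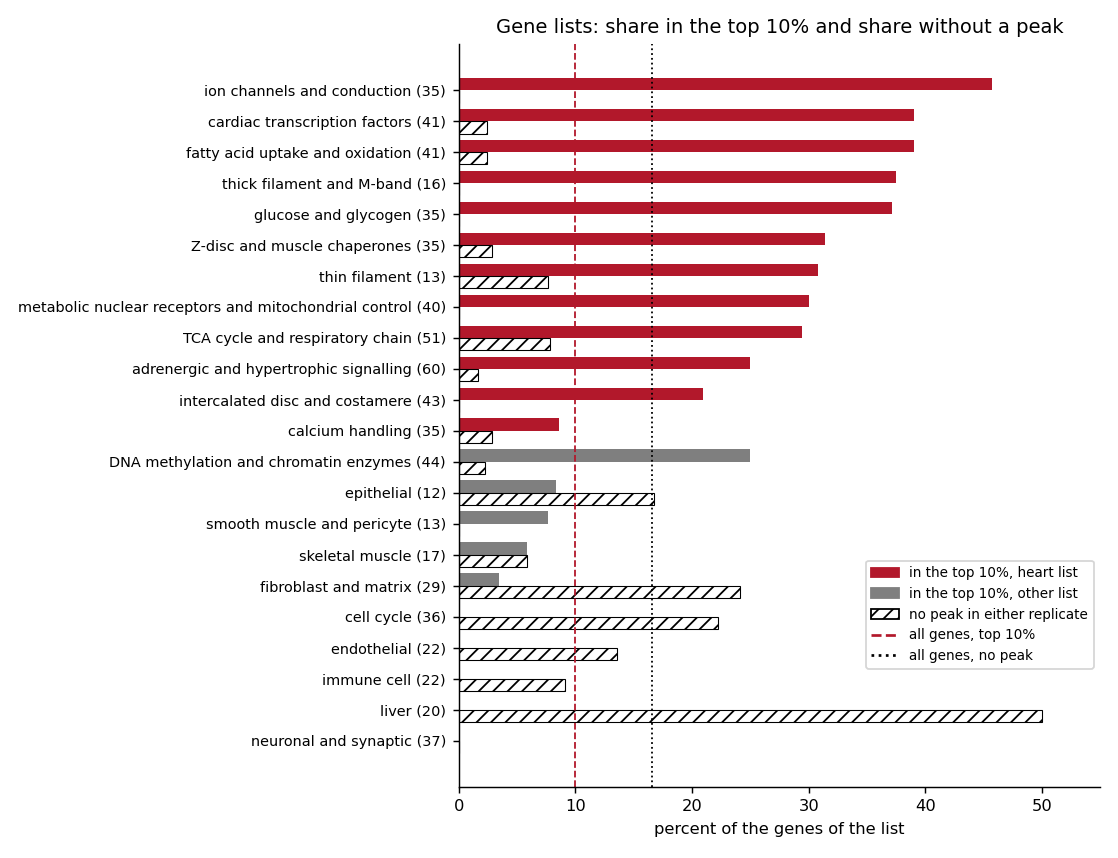
Share of each gene list (x axis, percent of its measured genes, their number in brackets) in the top 10% by lower value (filled bars, red for heart lists and grey for others) and without a peak in either replicate (hatched bars); dashed and dotted lines give the same shares over all genes, 10% and 16.6%. The heart list of ion channels and conduction reaches 45.7% in the top 10%, and the listed liver genes are bare in 50%.

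Of the heart lists, that of ion channels, pumps and genes of conduction had the largest share in the top 10%, 16 of 35 (45.7%), and none was bare. Channel genes in general did not stand out. Of genes with "channel" in their description 25 of 248 (10.1%) were in the top 10%, and with "potassium" 11 of 108 (10.2%), beside 10% of all genes. Beside *Slc4a3*, *Kcnh2*, the channel of the rapid delayed-rectifier current, had 29.1% and 30.1% under peaks, and the pacemaker channel gene *Hcn2* 31.7% and 39.9%. At the low end of this list, *Kcnd2*, a potassium channel gene, had 0.495% and 0.704%.

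Genes of calcium handling were the exception among the heart lists. Only 3 of 35 (8.57%) were in the top 10%, a share close to that of all genes, although the median lower value of 7.06% was above 2.74%. These 3 were *Camk2g*, a calmodulin kinase (26.8% and 27.4%), *Cacna1c*, the pore of the L-type calcium channel, over 609 kb (22.7% and 27.6%), and *Jph2*, which holds the sarcoplasmic reticulum to the T-tubule (18.2% and 17.1%). *Ryr2*, the calcium release channel, had 9.11% and 12.1% over 554 kb, and *Atp2a2*, the calcium pump SERCA2, had 4.11% and 5.36%. Phospholamban, the inhibitor of that pump, is encoded by *Pln*, which was bare. The list was the longest of the heart lists by median gene length, 111.5 kb, and had 1.05 CpGs per 100 bp.

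Among sarcomere genes, the thick filament and M-band had 6 of 16 in the top 10% (37.5%), the Z-disc and muscle chaperones 11 of 35 (31.4%) and the thin filament 4 of 13 (30.8%). *Obsl1* (42.4% and 49.6%), which encodes a cytoskeletal linker protein, and *Myh7b* (41% and 63.1%), which encodes a myosin heavy chain, led the first of these. *Ttn*, the molecular spring of the sarcomere, had 27.1% and 28.1% over 279 kb. The 2 main ventricular myosin heavy chains stood at its foot: *Myh6*, the adult chain, had 2.03% and 5.65%, and *Myh7*, the fetal chain, 2.09% and 8.37%.

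The Z-disc list was led by *Asb2*, a ubiquitin ligase subunit (25.5% and 27.7%), *Unc45b*, a myosin chaperone (23.7% and 29%), and *Flnc*, muscle filamin (22.9% and 36.6%). *Des*, the intermediate filament desmin, had 20.1% in replicate 1 and 69.6% in replicate 2, so its place rests on replicate 1. *Tnni1*, the slow skeletal troponin I of the fetal heart, led the thin filament with 40.6% and 31.2%, ahead of tropomyosin *Tpm1* (20.4% and 25%) and *Tnnt1* (38.9% and 19.4%). The cardiac troponin T gene *Tnnt2* had 6.29% and 12.6%. *Actc1*, cardiac alpha-actin, and *Myot*, the Z-disc protein myotilin, were bare.

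At the intercalated disc and costamere, where cells are coupled to each other and to the matrix, 9 of 43 genes (20.9%) were in the top 10% and none was bare. *Jup*, plakoglobin, had 41.8% and 55.7%, and *Dsp*, desmoplakin, 28.8% and 26.9%. *Gja1*, the gap junction protein connexin 43, had no peak base in replicate 1 and 5.08% in replicate 2.

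Genes of the chosen lists of energy metabolism were often in the top 10%. By description word the shares were nearer to the 10% of all genes. They were 21 of 212 for "mitochondrial" (9.91%), 8 of 105 for "synthase" (7.62%) and 23 of 157 for "dehydrogenase" (14.6%). Of fatty acid genes, 16 of 41 (39%) were in the top 10%, with *Acadvl* and *Pnpla2* followed by *Acadm*, the medium-chain dehydrogenase (44.1% and 40.7%). Of genes of glucose and glycogen, 13 of 35 (37.1%) were, led by *Slc2a4*, the insulin-regulated transporter GLUT4 (48.9% and 54.5%), *Pygm*, muscle glycogen phosphorylase (44.5% and 52%), and *Gpi1* (28.9% and 44.3%), an enzyme of glycolysis. Of the citrate cycle and respiratory chain, 15 of 51 (29.4%) were, among them *Ckm*, muscle creatine kinase (44.2% and 51.6%), and *Ndufv1*, a core subunit of complex I (40.2% and 43.8%). This last list also held the most bare genes of any heart list by number, 4 of 51 (7.84%), a share below the 16.6% of all genes. They were *Atp5b*, *Cox5a*, *Cox6c* and *Ndufa4*, which encode subunits of ATP synthase and of the cytochrome oxidase complex.

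Regulators were also frequent in the top 10%. Nuclear receptors and genes of mitochondrial control had 12 of 40 (30%) in the top 10%. Among them were *Rxra*, the common partner of many nuclear receptors (41.3% and 52.7%), and *Nr1d1*, a repressor of the circadian clock (47.7% and 35.3%). The coactivator gene *Ppargc1a* had 6.5% and 8%. Cardiac transcription factors had 16 of 41 (39%), with *Foxo3* and *Zbtb16* ahead of *Epas1*, a hypoxia-inducible factor (41.7% and 44.2%). *Tbx5* had 19.5% and 31.1%, *Gata4* 10.1% and 15.2% and *Mef2c* 8.83% and 8.48%. *Isl1*, a factor of the second heart field in the embryo, was bare. Adrenergic and hypertrophic signalling had 15 of 60 (25%), led by *Adcy6*, a cardiac adenylyl cyclase (47.8% and 57.9%), the kinase gene *Akt1* (42.6% and 57.9%) and *Rcan1*, an inhibitor of calcineurin (41% and 58.1%).

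The 10 bare heart genes were *Actc1*, *Atp5b*, *Cox5a*, *Cox6c*, *Fabp3*, *Isl1*, *Myot*, *Ndufa4*, *Pik3cg* and *Pln*. They were short, with a median of 7.7 kb beside 39.4 kb for all heart-list genes, and held 55 to 388 CpGs each. Their CpG density was 0.748 to 1.90 per 100 bp (median 1.34) and overlapped that of the 136 heart genes in the top 10%, 0.986 to 3.77 (median 1.65). For *Fabp3*, the fatty acid-binding protein of the heart, the nearest peak of replicate 2 lay 0.591 kb after the gene's end and that of replicate 1 lay 3.03 kb before its start. *Actc1* was 22 kb from the nearest peak of replicate 1 and 4.21 kb from that of replicate 2, and *Pln* 8.7 kb and 2.82 kb. *Cox5a*, by contrast, had peaks within 1.33 and 1.39 kb of its end. *Ndufa4*, a small partner of cytochrome oxidase, lay 25.8 and 34.4 kb from any peak, *Isl1* 183 and 44.1 kb, and *Pik3cg*, a phosphoinositide kinase, 30.2 and 30.1 kb.

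A further 13 heart genes had peaks in 1 replicate only. *Eno3*, muscle enolase, reached 33.1% in replicate 1 and 0% in replicate 2, and *Mpc2*, a subunit of the mitochondrial pyruvate carrier, 11% and 0%. The remainder had values up to 7.97%, the value of *Tfam*, a mitochondrial transcription factor, in replicate 1.

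Markers of the other cells of the heart and of other tissues stood lower than the heart lists. A peak does not show expression, so these lists bear on the place of 5-hmC alone, and the part that other cells in the preparation had in the values of heart genes was not tested. Of 29 fibroblast and matrix genes 1 was in the top 10% (3.45%), *Gsn* (18.4% and 20.2%), followed by *Fbln1* (14.3% and 25.1%), and 7 were bare (24.1%), among them the collagen genes *Col1a2* and *Col3a1* and the matrix gene *Postn*. *Vim* had 5.88% and 7.35%, whereas the paper, which kept peaks found in both replicates, reports none in it. None of 22 endothelial genes was in the top 10%, where *Eng* (21.2% and 14.7%) and *Pecam1* (13.5% and 19.1%) were the highest, and *Emcn*, *Sox17* and *Cd34* were bare. Of 13 smooth muscle and pericyte genes 1 was, *Smtn* (39.5% and 52.6%), and *Acta2* had 26.6% and 13.4%. None of 22 immune cell genes was, with *Spi1* (13.7% and 16.5%) and *Cd3g* (6.59% and 5.98%) at their head. Beside all genes the picture was mixed. The median lower value was 5.27% in endothelial and 5.03% in smooth muscle and pericyte genes, above the 2.74% of all genes. It was below that in fibroblast and matrix (1.81%) and immune cell genes (1.58%). Bare shares were 13.6% in endothelial, 0% in smooth muscle and pericyte and 9.09% in immune cell genes, beside 16.6% of all genes.

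Lists of other tissues had median lower values below the 2.74% of all genes. None of 37 neuronal genes was in the top 10%, with a median lower value of 0.275% and a median length of 460.3 kb, although none was bare. *Mapt*, tau, had 14.9% and 18.6%, and *Slc17a7* 10.3% and 22.1%. None of 20 liver genes was, 10 were bare, and *Ttr* (27.7% and 8.88%) had the highest lower value. Of 17 genes of skeletal muscle 1 was (5.88%), *Casq1* (21.3% and 67.6%), followed by *Atp2a1* (9.65% and 14.2%). Of 12 epithelial genes 1 was (8.33%), *Esrp2* (34.1% and 19.3%), followed by *Krt5* (8.58% and 15.8%). Bare genes made up 5.88% of the skeletal muscle list and 16.7% of the epithelial list. Over all genes 10% were in the top 10% and 16.6% were bare, so the epithelial shares were close to those of all genes. None of 36 cell cycle genes was in the top 10% and 8 were bare. *Cdk6* (13.7% and 13.7%) and *Ccnd1* (24% and 11.5%) were the highest of them.

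Enzymes that write, read and remove chromatin marks formed a list apart, with 11 of 44 in the top 10% (25%). *Kdm6b*, a demethylase of H3K27, had 48.9% and 50.9%, and the DNA methyltransferase gene *Dnmt3a* 31.7% and 36.8%. The genes of the TET enzymes differed from each other: *Tet3* had 29.3% and 32.7%, *Tet1* 8.78% and 10.9% and *Tet2* 4.93% and 6.92%, and the replicate values of the 3 genes did not overlap. *Mbd4*, a glycosylase of the repair pathway, was bare.

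Gene families named by the stem of the symbol gave a view that did not depend on the chosen lists. There were 117 families with 15 or more measured genes. The 8 with the largest share in the top 10% began with Dusp (7 of 17, 41.2%), the dual-specificity phosphatases that switch off MAP kinases. Next were Asb (5 of 15, 33.3%), substrate receptors of ubiquitin ligases, and Zbtb (10 of 33, 30.3%), zinc finger repressors. Genes with Map and a number followed (11 of 41, 26.8%), the highest being *Map3k1*, *Map4k4*, *Map4k2* and *Map7d1*. MAP kinases with the stem Mapk were a separate family, with 0 of 18 in the top 10%. The others of the 8 were Arhgef (6 of 23, 26.1%), activators of small GTPases, Sema (5 of 20, 25%), semaphorins, Bcl (5 of 21, 23.8%) and Ptpn (4 of 17, 23.5%), tyrosine phosphatases. In the words of the gene descriptions, of which 85 were carried by 100 genes or more, "phosphatase" led with 47 of 220 in the top 10% (21.4%), followed by "activated" (18.1%), "regulatory" (17.4%), "ras" (16.4%), "nucleotide" and "ankyrin" (15.9% each), "oncogene" (15.6%) and "growth" (14.8%).

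At the other end, 25 families had no gene in the top 10%. Those with the largest shares of bare genes were vomeronasal receptors (Vmn, 122 of 127, 96.1%), prolactin-related genes (Prl, 24 of 25, 96%), Pramel (20 of 23, 87%), olfactory receptors (Olfr, 38 of 46, 82.6%), Ifi (13 of 17, 76.5%), Clec (20 of 29, 69%), Ms (14 of 21, 66.7%) and Serpinb (18 of 28, 64.3%). These 8 were picked among the tied families by their share of bare genes. Their median CpG density was 0.370 to 0.625 per 100 bp, beside 1.19 over all genes. Many of them lie in clusters of close copies, and reads of low mapping quality had been removed, so whether a single copy is bare is uncertain. Of description words, "vomeronasal" was lowest (0 of 127), followed by "predicted" (2 of 308, 0.649%), "gene" (4.03%), "antigen" (4.17%), "inhibitor" (4.46%), "expressed" (5%), "component" (5.38%) and "cdna" (5.42%).

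Bare genes were usually short. Their median length was 13.5 kb, and the bare share was 33.6% at 5 to 10 kb, 22.1% at 10 to 20 kb, 14.1% at 20 to 50 kb, 6.66% at 50 to 100 kb and 1.4% (31 of 2207) from 100 kb. The longest bare genes were *Snrpn* (467.7 kb), an imprinted gene of RNA splicing, *Ccdc178* (360.5 kb), *Mei4* (342.3 kb), a gene of meiosis, *Fshr* (215.7 kb), a receptor of the gonads, and *Zfhx4* (197.3 kb). Of the 2572 bare genes, 1413 also had no peak base within 10 kb on either side in either replicate.

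**Figure D4:**
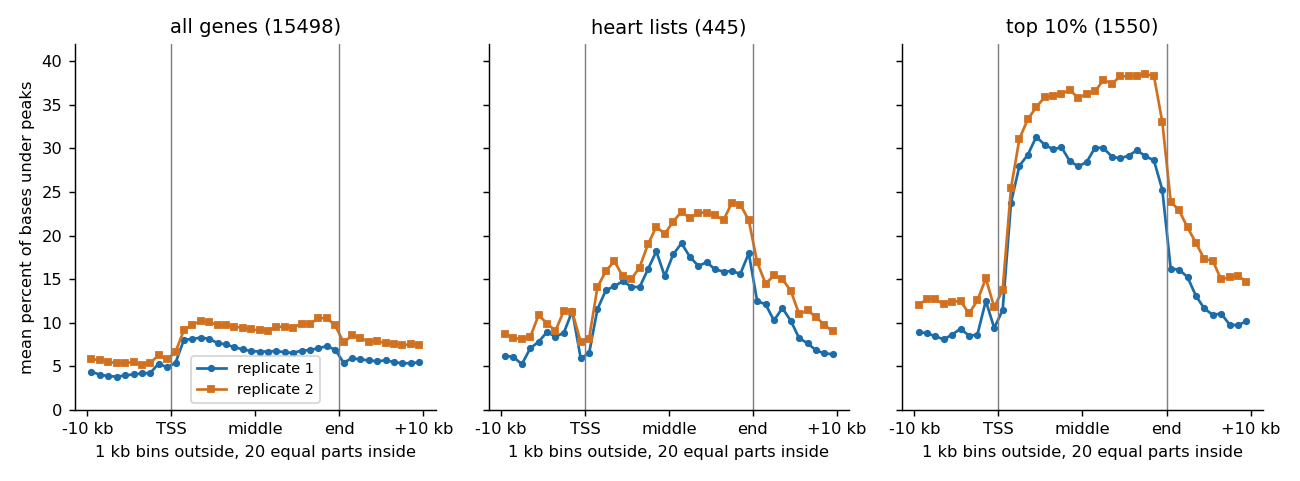
Mean percent of bases under peaks (y axis) in 20 equal parts of each gene from TSS to end and in 1-kb bins outside (x axis), for all genes, heart-list genes and the top 10%, in replicate 1 (circles) and replicate 2 (squares). In each panel cover is lowest within the gene in the first part after the TSS, for heart lists at 6.49% and 8.19%. The last part of the gene is above the first in each panel, for all genes at 6.90% and 9.68%.

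Within the gene, cover was lowest at the start. Over all genes the first of 20 equal parts had 5.40% of its bases under peaks in replicate 1 and 6.65% in replicate 2, and was the lowest part in both. The highest was part 4 in replicate 1 (8.30%) and part 19 in replicate 2 (10.6%). Just before the TSS the first kb had 4.86% and 5.78%, and just after the end it had 5.41% and 7.73%. In heart-list genes the first part had 6.49% and 8.19% and the highest part 19.1% (part 12) and 23.8% (part 18). The highest part was 2.95 and 2.91 times the lowest there and 1.54 and 1.59 times over all genes. In the top 10%, which was chosen for cover, the first part had 11.4% and 13.8% and the highest 31.3% and 38.5%.

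Pooled over genes, exon bases were covered more than intron bases. Over all genes, 8.67% of exon bases and 5.42% of intron bases lay under peaks in replicate 1 and 12.1% and 6.76% in replicate 2, ratios of 1.60 and 1.79. Exons made up 6.15% of the gene bases, so that 9.48% and 10.5% of genic peak bases were exonic and the greater part was intronic. The ratio was smaller in the top 10%, 1.26 and 1.33. Since bases were pooled, these ratios mix differences between genes with place within the gene, and no comparison within genes was made.

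Genes differed in base composition between classes of cover. The median CpG density was 0.810 per 100 bp in bare genes, 1.17 in genes with a peak in 1 replicate and, over 5 equal classes of the genes with peaks in both, 0.869, 1.15, 1.30, 1.41 and 1.67 from the lowest lower value to the highest. It was 1.73 in the top 10%. The lowest class held the longest genes, with a median of 75.1 kb beside 22.3 kb in the highest class. The median GC content was 41.8% in bare genes, 41.6% in the lowest class and 50.6% in the top 10%, and the median share of repeats was 25.9%, 28.1% and 18.2%. Across genes, Spearman's rho with the lower value was 0.454 for CpG density, 0.437 for GC content, -0.243 for the share of repeats and 0.143 for length (n = 15498 genes, a description, since these features share their sequence).

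The heart lists were also richer in CpG than genes in general, with 1.29 per 100 bp beside 1.19, so their share in the top 10% was set beside that of all genes of like density. In the lowest quartile of genes by CpG density (up to 0.875 per 100 bp), 0 of 84 heart genes and 0.129% of all genes were in the top 10%. In the second quartile the shares were 10.5% of 105 heart genes and 2.56% of all genes, in the third 38.4% of 125 and 11.8%, and in the highest (from 1.56 per 100 bp) 58.8% of 131 and 25.5%. The heart share was therefore above that of all genes in 3 of the 4 quartiles. By length it was above in all 5 classes, from 38.2% beside 11.9% at 5 to 10 kb to 17.1% beside 8.16% from 100 kb.

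**Figure D5:**
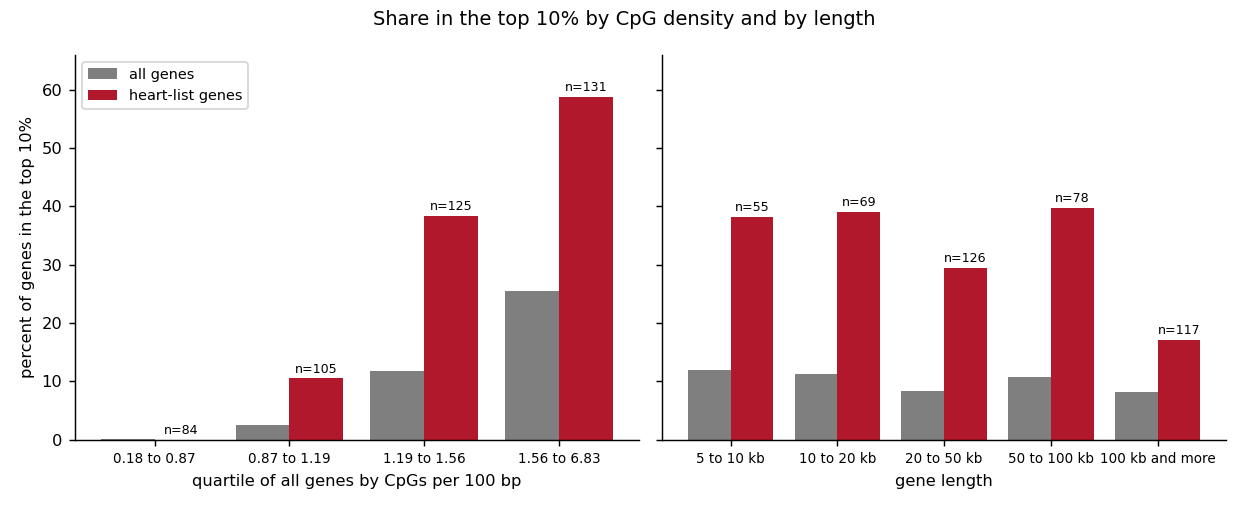
Percent of genes in the top 10% (y axis) among all genes (grey) and heart-list genes (red, their number above the bar), by quartile of all genes in CpGs per 100 bp (left) and by gene length (right). The heart bar is the taller in the 3 upper quartiles, at 58.8% beside 25.5% in the highest, and in each length class.

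Covered genes lay beside each other. A gene of the top 10% was followed on its chromosome by another in 20.9% of cases, beside 8.80% for other genes, and without overlapping neighbours these shares were 19.7% and 8.88%. A bare gene was followed by another bare gene in 44%, beside a bare share of 16.6% over all genes. The same share for genes with a peak was not computed. Families of clustered copies such as Vmn (122 of 127 bare) count in the 44%. The longest runs held 7 genes. Of these, 1 on chromosome 7 (chr7:45627537-45729492) ran from *Rasip1* to *Fam83e* and 1 on chromosome 10 (chr10:79977120-80137387) from *Tmem259* to *Cbarp*. A run of 5 on chromosome 11 (chr11:100780731-101063719) held *Stat5b*, *Stat5a*, *Stat3*, *Cavin1* and *Atp6v0a1*, and another held *Thra* and *Nr1d1*, whose transcripts overlap on opposite strands. Chromosome 11 had the largest share of its genes in the top 10% (14.9%) and chromosome 13 the smallest (6%), with median CpG densities of 1.36 and 1.05 per 100 bp. Neighbours share peaks and base composition, and their part in these runs was not tested.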

How the data were processed

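hMeDIP sequencing of adult CMCs was described from 2 biological replicates (n = 2). Per the paper's methods, the authors aligned reads to mm10 with BWA 0.7.4-r385, handled duplicates with Picard, kept only reads above a mapping-quality limit (bamtools), and ran HOMER findPeaks in histone mode on each replicate with its input as control. The deposited lists hold positions and a score column that is 1 for each peak, and the tag numbers and p-values that the headers name are not among their columns. Per the file headers, scaling was of the control in replicate 1 and of the precipitated library in replicate 2. How far this and the unknown depth set the difference between the lists was not tested.

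For each gene (span of all curated RefSeq transcripts, annotation release 108 of GRCm38, the assembly of mm10), the percent of base pairs under the merged peaks of each replicate was computed with Python 3.11.15, numpy 2.4.6 and pandas 2.3.3. Genes were ranked by the lower value, with the name deciding ties. The coverage code was tested on simulated intervals. CpGs, GC and soft-masked repeats were counted on the reference sequence. Classes of sequence features are 5 equal parts of the genes with peaks in both replicates, since genes at 0 are tied. Outdated symbols of 6 list genes were resolved by synonym.

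The genes and lists were chosen with earlier results of these data known. Named by rule were the 25 highest genes, the 10 highest from 50 kb, the 3 highest and the bare genes of each heart list, the 2 highest of each other list and, among genes from 20 kb, the 5 largest replicate differences in each direction. Some genes so chosen are not reported here. Other heart genes were named for their known roles after their values were seen. There is 1 group, so no test was made, and p-values are not given.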

Additional observations from a re-analysis of the deposited data

How the results depend on the processing

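Of 69 values of the 6 main results under other settings, 56 stayed near the reported value: counts within a factor of 1.5, the rank correlation within 0.05 and shares within the 95% Clopper-Pearson interval of the reported share, which covers counting of genes only. With genes of 20 kb or more there were 836 bare genes and 1839 at 10% or more, 9.19% and 20.2% of the 9093 genes measured, rho was 0.848, the top 1% shared 58.2% and 0.623% of heart genes were bare. Peak centres per 10 kb gave a rho of 0.686, a shared top 1% of 9.68% and 24.9% of heart genes in the top 10%. Bases under peaks of both replicates gave 7356 genes without a shared base, 1471 at 10% or more and 11.2% of heart genes without a shared base, by construction. With either replicate left out, bare genes numbered 3587 to 4103 and genes at 10% or more 3899 to 5059, and heart genes were in the top 10% in 27.4% to 30.3% and bare in 3.6% to 3.82%. The share of heart genes in the top 10% lay between 24.9% and 33% under all these settings, the highest with the percent of CpGs under peaks, a setting chosen after seeing the data. Of 75 genes of the top 10% chosen by name or rule, 45 kept that place by peak centres and 69 to 75 in the other settings that held them all. Peak centres give no 10% level, and single values per gene give no rank correlation or shared top 1%. No paired analysis was possible because there is 1 group. Reads per library are unknown, so the depth could not be set equal, only the number of peaks.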

Other observations

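Many small genes of the contractile apparatus and of mitochondria fell below the length limit of 5 kb and so outside the ranking. Of 30 such heart-list genes, 8 had a lower value of 10% or more and 12 had no peak base in either replicate. In the range of 2 to 5 kb, where both sets had similar median lengths (3.49 and 3.48 kb), 8 of 28 heart-list genes (28.6%) were at 10% or more and 11 (39.3%) were bare, beside 22.8% and 48.9% of all 2282 autosomal genes of that length. *Myl7*, the atrial light chain of myosin (2.15 kb), had 61.1% of its length under 1 peak in replicate 1 and 51.4% in replicate 2. *Hspb6*, a small heat shock protein of muscle, had 43.7% and 55.1%, *Tpi1*, an enzyme of glycolysis, 34.4% and 35.3%, and *Fxyd1*, the sodium pump regulator phospholemman, 33.1% and 57.4%. Cardiac troponin I, *Tnni3*, had 26.9% and 29.6% with 2 peaks in each replicate. No peak base was found on *Tnnc1*, which encodes cardiac troponin C, on *Tcap*, *Sln*, *Nkx2-5*, *Hand2*, *Slc25a4* or *Gapdh*, all under 5 kb as well. Values of genes this short rest on 1 or 2 peaks: *Acta1*, skeletal alpha-actin, had 0% in replicate 1 and 31.4% in replicate 2.

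On the X chromosome, *Dmd*, which encodes dystrophin and spans 2256 kb, had 0.570% and 0.390% under 13 and 8 peaks. *Phka2* had 1.04% and 0%, and *Pfkfb1* was without a peak in both.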
